A study of Mus musculus with 12 samples.

Results

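The 10 genes of the Wnt pathway were followed in the newborn mouse skull, as 10 of the 23358 rows of the deposited gene count table, each matched by its symbol. They are 3 ligands (Wnt5a, Wnt11 and Wnt16), 2 co-receptors (Lrp5 and Lrp6), 2 transcription factors (Tcf7 and Lef1) and 3 feedback genes (Axin2, Nkd2 and Notum). All 10 passed the filter on low counts that kept 16190 genes. Polyadenylated RNA was sequenced from the frontal region of the skull (frontal and nasal bones with the sutures named coronal and frontonasal) of mice at postnatal day 3, after a digest with collagenase and trypsin. There were 4 groups of 3 samples: wild type on C57BL/6 (replicates 1 to 3), Crouzon mutants on C57BL/6 (replicates 4 to 6), wild type on BALB/c (replicates 13 to 15) and Crouzon mutants on BALB/c (replicates 16 to 18). The mutants carry 1 copy of the FGFR2-C342Y allele, a model of Crouzon craniosynostosis in which a missense change in the receptor FGFR2 leaves it active without its ligand. The labels name no Cre driver or transgene. The labels do not say whether a sample is 1 animal or a pool, nor whether replicates came from separate animals, so p-values measure only the spread between these samples.

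Wnt ligands bind a Frizzled receptor together with LRP5 or LRP6, which stops the destruction of beta-catenin, and beta-catenin then enters the nucleus and acts with TCF7, LEF1 and related factors on target genes. AXIN2, NKD2 and NOTUM are made in response to the signal and dampen it: AXIN2 is a scaffold for beta-catenin destruction, NKD2 binds Dishevelled, and NOTUM is a secreted enzyme that removes the lipid from Wnt proteins. WNT5A and WNT11 are best known for signalling that does not use beta-catenin, WNT16 is made by osteoblasts and acts on cortical bone, and in the skull the pathway is known for its part in osteoblast formation and in the sutures.

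The totals of the gene counts ranged from 27181658 to 46521546 per sample. All 6 osteoblast markers were present in every library (Runx2, Sp7, Alpl, Bglap, Ibsp and Col1a1, summing to 61128 to 140247 CPM, the usual depth-scaled unit: a gene's count relative to its library's scaled total). The libraries were not pure bone: the 8 airway and olfactory epithelium markers summed to 305 to 768 CPM in C57BL/6 wild types and 5.34 to 183 in C57BL/6 mutants, against 4.80 to 8.51 in BALB/c, where Bpifa1, Cyp2g1 and Sec14l3 were at 0 in all 3 wild types. Replicate 1 of the C57BL/6 wild types had the lowest osteoblast sum, and replicate 4 of the C57BL/6 mutants was the mutant with epithelial signal. Each strain was run on a flow cell of its own, by the run identifiers in the labels, so strain and flow cell cannot be told apart, while both genotypes of a strain shared a flow cell. Fgfr2 itself was higher in mutants on C57BL/6 by 0.54 log2 (SE 0.0999; edgeR, adjusted p = 0.00405) and differed by 0.09 on BALB/c (edgeR, adjusted p = 0.800), and total counts over the gene do not separate the mutant allele from the normal one.

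TCF and LEF factors bind a short motif near many of their targets, and promoter windows of the members were searched for it. Whether the motif has a part in any difference between groups was not tested. RefSeq windows of the GRCm38.p6 build were available for 6 of the 10 members (Axin2, Lef1, Nkd2, Tcf7, Wnt11 and Wnt16), with 11 transcription starts among them, and Wnt5a, Lrp5, Lrp6 and Notum were not matched. The 250 bases before each start were searched on both strands for the TCF and LEF motif, spelled CTTTGAA or with a last T as CTTTGAT, and also spelled CTTTGTA or with a last T as CTTTGTT; all share their first bases and none lies within another. The 11 windows are not all separate, as those of 2 Lef1 starts overlap. A match was found in 2 of the 11 windows, near the share of 14.8% among the 32851 windows of that length for all genes. Of these, 4 windows are shown, all on the plus strand: both Wnt11 starts, since that gene fell furthest in C57BL/6 mutants, the Axin2 start as the best-known target of the pathway, and the Lef1 start that held the other match. Capitals mark the match, which in both cases is the motif read on the opposite strand.
Wnt11, upstream start, chr7:98834862-98835111: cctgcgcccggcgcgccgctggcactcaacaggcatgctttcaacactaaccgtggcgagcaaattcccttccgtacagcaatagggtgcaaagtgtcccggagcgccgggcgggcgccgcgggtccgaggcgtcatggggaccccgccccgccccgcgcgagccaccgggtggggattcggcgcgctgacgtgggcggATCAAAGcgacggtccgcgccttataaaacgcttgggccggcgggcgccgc
Wnt11, start of the deposited gene model, chr7:98838595-98838844: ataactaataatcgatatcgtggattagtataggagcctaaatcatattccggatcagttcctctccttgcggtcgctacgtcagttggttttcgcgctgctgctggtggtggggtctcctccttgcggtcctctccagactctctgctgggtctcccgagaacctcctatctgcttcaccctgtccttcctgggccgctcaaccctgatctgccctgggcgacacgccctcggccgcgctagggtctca
Axin2, chr11:108920099-108920348: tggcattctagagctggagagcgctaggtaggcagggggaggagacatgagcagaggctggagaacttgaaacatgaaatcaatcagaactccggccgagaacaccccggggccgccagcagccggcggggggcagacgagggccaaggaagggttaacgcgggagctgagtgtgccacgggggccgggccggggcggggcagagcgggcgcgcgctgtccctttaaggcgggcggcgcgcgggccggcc
Lef1, internal start, chr3:131156044-131156293: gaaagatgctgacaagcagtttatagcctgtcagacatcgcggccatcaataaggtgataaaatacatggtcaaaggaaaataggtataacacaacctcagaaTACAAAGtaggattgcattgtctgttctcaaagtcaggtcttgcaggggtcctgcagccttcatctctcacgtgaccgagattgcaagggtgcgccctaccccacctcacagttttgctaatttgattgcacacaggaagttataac
The Wnt11 match is CTTTGAT, 51 bases before the upstream start, and the Lef1 match is CTTTGTA, 147 bases before a start inside the gene. The Wnt11 window at the deposited start, the Axin2 window, the other Lef1 windows and those of Nkd2, Tcf7 and Wnt16 held none of these motifs in these 250 bases. The counts were summed over whole genes, so they do not tell which start was used.

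On the C57BL/6 background, 7 of the 10 genes differed between mutants and wild types at an adjusted p under 0.05, when 23.9% of all tested genes did. Wnt5a, Lrp5, Tcf7 and Notum rose and Wnt11, Wnt16 and Axin2 fell, so genes of 1 pathway moved in both directions. The background was 11.3% of genes called higher and 12.6% called lower. The CPM values of the 2 genotypes did not overlap for 8 of the 10 genes, the 7 called and Lef1, when 41.6% of all genes did not overlap. The median log2 fold change of the 10 genes was 0.22, beside -0.004 for all genes tested. In bulk tissue, fewer cells of a type and less RNA per cell cannot be told apart. The 4 genes counted on the Y chromosome (Uty, Kdm5d, Ddx3y and Eif2s3y) were not balanced over the groups: they summed to 152 to 161 CPM in all 3 C57BL/6 wild types, but to 1.36, 1.02 and 185 CPM in the C57BL/6 mutants, where replicate 6 alone was high, and in BALB/c 1 library of each genotype was high. With their summed log2 level as a covariate (the Y-linked covariate) 5 of the 10 genes were called on C57BL/6, when 17.8% of all genes were. The calls of Wnt16 (edgeR, adjusted p = 0.115) and Axin2 (adjusted p = 0.0556) were lost.

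**Figure D1:**
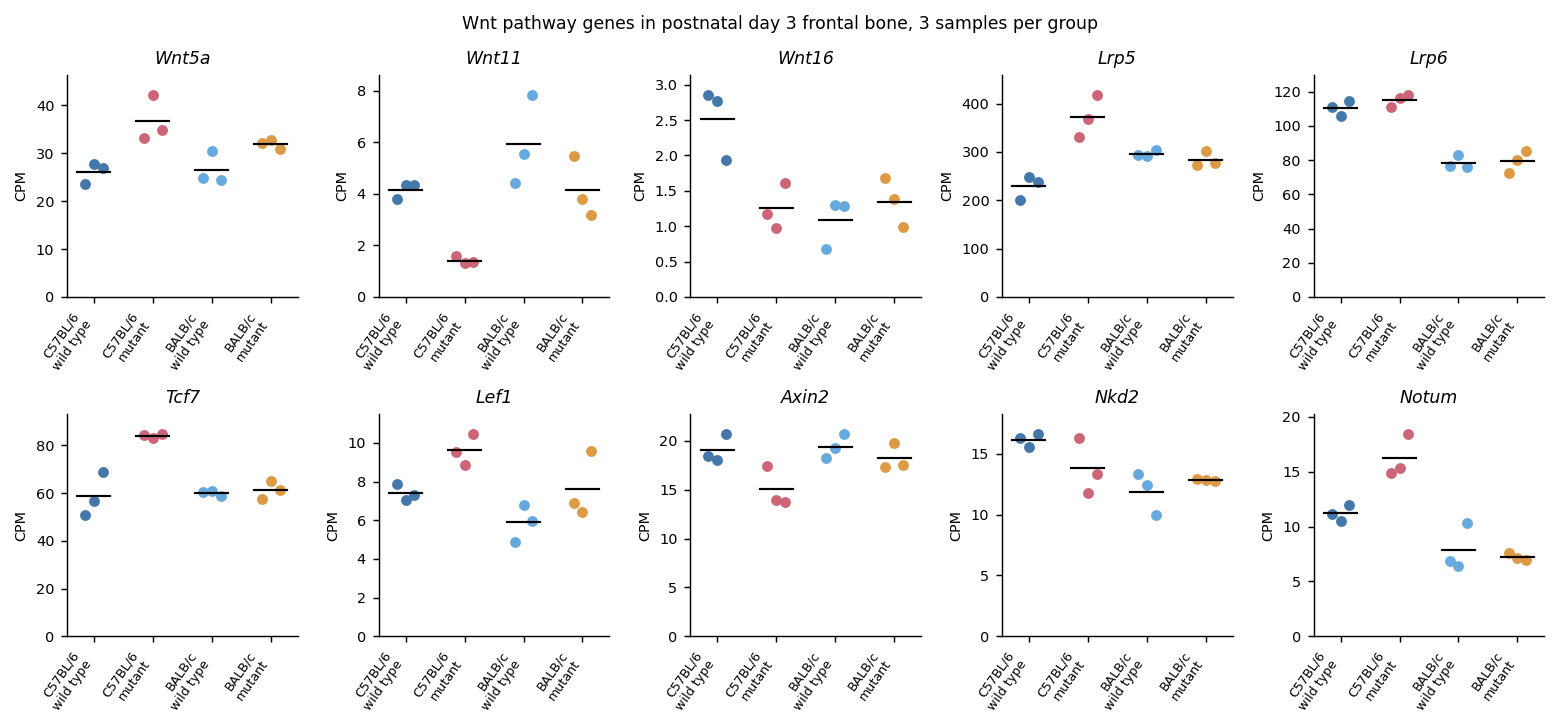
Levels of the 10 Wnt pathway genes in CPM, scaled to effective library size, on linear vertical axes that start at 0, with 1 point per sample and a bar at the mean of the 3 samples of each group. The C57BL/6 mutants do not overlap the C57BL/6 wild types for 8 of the 10 genes (all but Lrp6 and Nkd2), while the 2 BALB/c groups overlap for all genes but Wnt5a.

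Among the ligands, Wnt11 stood at 3.79, 4.34 and 4.34 CPM in the C57BL/6 wild types and at 1.58, 1.31 and 1.35 CPM in the C57BL/6 mutants. Every mutant lay far below every wild type. The gene (chr7:98838845-98854747) fell by 1.55 on the log2 scale (SE 0.249; edgeR, adjusted p = 0.00185), a decrease to 0.341 of the wild type level. Its counts were low, 50 to 70 per mutant library and 144 to 162 per wild type library, yet the call held when any 1 library was left out.

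Wnt16 (chr6:22288227-22298522) had 2.86, 2.77 and 1.93 CPM in wild types and 1.17, 0.97 and 1.62 CPM in mutants. The mutants were all lower, with a narrow gap between the highest mutant and the lowest wild type. It fell by 1.01 on the log2 scale (SE 0.323; edgeR, adjusted p = 0.0417), and this call rests on few counts, 40 to 60 per mutant library. Every deposited count is even, so a printed count may stand for fewer sequenced fragments than its value. It held in 1 of the 6 fits that left out a C57BL/6 library, that without wild type replicate 3, and over the 6 adjusted p ranged from 0.0375 to 0.135.

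Wnt5a (chr14:28505473-28525515), the most abundant of the 3 ligands, rose instead: wild types had 23.5, 27.9 and 27.0 CPM and mutants 33.1, 42.2 and 34.9 CPM. All 3 mutants were above the wild types. The log2 fold change was 0.49 (SE 0.106; edgeR, adjusted p = 0.00824), or 1.41-fold, and it was 0.30 when libraries were scaled by their totals alone, a scaling that lowered the median of all genes by 0.196.

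The 2 co-receptors, which carry the signal to the destruction complex side by side, differed. Lrp5 (chr19:3584825-3686564) had 201, 248 and 238 CPM in wild types and 330, 368 and 418 CPM in mutants, and the lowest mutant was well above the highest wild type. It rose by 0.70 log2 (SE 0.0950; edgeR, adjusted p = 0.000817), or 1.62-fold, and kept its call without any 1 library. Lrp6 (chr6:134446478-134566913) had 111, 106 and 115 CPM in wild types and 111, 116 and 118 CPM in mutants. These ranges overlapped, and the log2 fold change of 0.06 (SE 0.0649) did not pass the test (edgeR, adjusted p = 0.520). Its direction turned to -0.14 when libraries were scaled by their totals.

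Of the nuclear factors, Tcf7 (chr11:52252604-52282571) had 50.7, 56.7 and 68.8 CPM in wild types and 84.1, 83.2 and 84.7 CPM in mutants. The 3 mutants were nearly alike and all above the more spread wild types. The gene rose by 0.52 log2 (SE 0.0901; edgeR, adjusted p = 0.00280), 1.43-fold, and by 0.33 with library totals as the scale. Lef1 (chr3:131110471-131223331) had 7.85, 7.05 and 7.29 CPM in wild types and 9.53, 8.88 and 10.5 CPM in mutants. Its mutants were also all above its wild types, yet the difference of 0.38 log2 (SE 0.164) did not pass (edgeR, adjusted p = 0.108).

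Of the 3 feedback genes, Axin2 and Notum moved in opposite directions and Nkd2 did not pass. Axin2 (chr11:108920349-108950781) had 18.50, 18.01 and 20.69 CPM in wild types and 17.40, 13.97 and 13.74 CPM in mutants, of which replicate 4 was nearest the wild types. It fell by 0.34 log2 (SE 0.102; edgeR, adjusted p = 0.0312). Notum (chr11:120653789-120660837) went the other way, from 11.17, 10.54 and 11.95 CPM in wild types to 14.9, 15.3 and 18.4 CPM in mutants, with no overlap, and rose by 0.53 log2 (SE 0.160; edgeR, adjusted p = 0.0336). Both calls were lost in 4 of the 6 fits that left out a library. For Axin2 those were the fits without wild type replicate 1 or 3 or mutant replicate 5 or 6 (adjusted p up to 0.118), and for Notum those without wild type replicate 1 or 2 or mutant replicate 5 or 6 (up to 0.128). Nkd2 (chr13:73819328-73847631) had 16.3, 15.5 and 16.6 CPM in wild types and 16.3, 11.8 and 13.3 CPM in mutants. Mutant replicate 4 lay within the wild type range, and the difference of -0.23 log2 (SE 0.124) did not pass (edgeR, adjusted p = 0.198), though it did without that replicate (adjusted p = 0.0350).

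Opposite-strand genes overlap the exons of 5 members in the GENCODE M21 annotation, and the strand setting of the counting is not given in the sources used here. For Notum the antisense genes Notumos and Myadml2os cover 918 of 2408 exonic bases, and for Lef1 Gm43352 covers 1208 of 8788. The overlap is 358 bases for Wnt5a, 364 for Wnt11 and 209 for Axin2, and 0 for Wnt16, Lrp5, Lrp6, Nkd2 and Tcf7. Without the strand setting, reads over these shared bases cannot be assigned to one strand or the other.

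Other cell types moved with the mutant genotype on C57BL/6, and their part in the results above was not tested. Of the marker lists, 5 of 5 tested erythroid genes were called lower in the mutants (sums of 46.7 to 75.6 CPM against 182 to 247 CPM in wild types), and 4 of 4 basal epithelial genes were lower. Of the chondrocyte genes 2 of 6 were lower, with sums of 238 to 2636 CPM against 4703 to 6962 CPM, and 2 of 8 airway and olfactory and 3 of 7 B cell precursor genes were lower. Of 5 suture and periosteal mesenchyme genes 2 were higher and 1 lower, and 2 of 5 endothelial genes were higher. All 5 osteoclast genes were higher (7140 to 7952 against 3384 to 4137 CPM), as were 4 of 6 osteoblast genes (115473 to 140247 against 61128 to 108136 CPM). The osteoblast sums are mostly Col1a1, with 58981 of 61128 CPM in wild type replicate 1 and 136653 of 140247 CPM in mutant replicate 6. Without wild type replicate 1, the library with the lowest osteoblast sum, 4 of the 10 Wnt genes were called (Lrp5, Tcf7, Wnt5a and Wnt11), and without mutant replicate 4, the mutant with epithelial signal, 7 were, of which 6 were the same: Wnt16 was lost (edgeR, adjusted p = 0.0685) and Nkd2 gained (adjusted p = 0.0350). The count was 4 without mutant replicate 5 and 4 without mutant replicate 6. Of all genes, 13.3% were called without wild type replicate 1, and 29.3%, 13.8% and 10.5% without mutant replicates 4, 5 and 6, beside 23.9% with all samples.

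**Figure D2:**
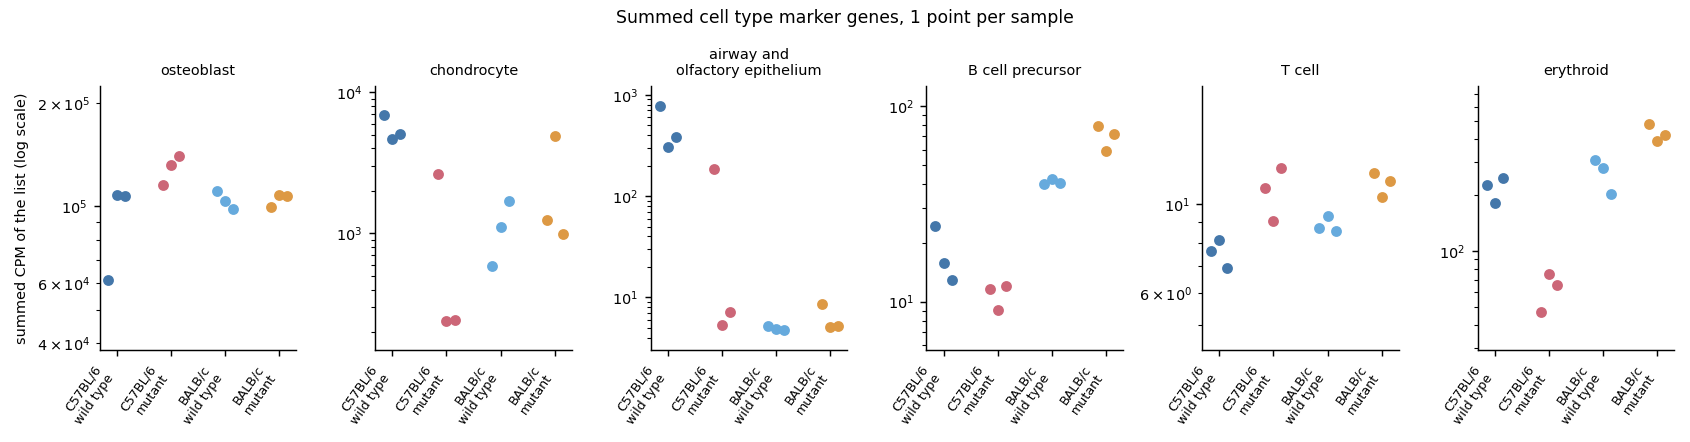
Summed CPM of 6 lists of cell type markers, on log axes, with 1 point per sample. Airway and olfactory epithelium, chondrocyte and erythroid sums were lower in the C57BL/6 mutants than in the C57BL/6 wild types, and 1 mutant sample, replicate 4, sits between them for epithelium and chondrocytes.

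On BALB/c, DESeq2 and limma-voom called 0 of the 10 genes between mutants and wild types, when they called 2% and 0.272% of all genes. By edgeR 0 of the 10 were called as well, when 0.136% of all genes were (0.0926% higher and 0.0432% lower). At an unadjusted p under 0.05 there were 3, of which Wnt5a and Lef1 had the higher value in mutants and Wnt11 the lower, when 11.7% of all genes were at that level. The ranges did not overlap for 1 of the 10 genes, Wnt5a, against 20.0% of all genes. It had 24.9, 30.4 and 24.5 CPM in wild types and 32.1, 32.8 and 30.9 CPM in mutants, so the highest wild type nearly reached the lowest mutant. The log2 difference was 0.26 (SE 0.107; edgeR, adjusted p = 0.364).

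Wnt11 had 4.43, 5.56 and 7.85 CPM in BALB/c wild types and 5.46, 3.79 and 3.20 CPM in BALB/c mutants. These overlap, with a wide spread in both groups, and the log2 difference was -0.52 (SE 0.238; edgeR, adjusted p = 0.420). Lrp5 had 294, 292 and 303 CPM in wild types and 274, 301 and 278 CPM in mutants, a difference of -0.06 (SE 0.0946; edgeR, adjusted p = 0.873). Tcf7 had 60.6, 61.0 and 58.7 CPM in wild types and 57.4, 65.0 and 61.4 CPM in mutants. In both genes the groups overlapped, and for Tcf7 the difference was 0.03 (SE 0.0903; edgeR, adjusted p = 0.956).

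Lef1 had 4.88, 6.79 and 5.97 CPM in BALB/c wild types and 6.90, 6.41 and 9.60 CPM in mutants, of which replicate 18 was well above the rest. Its log2 difference was 0.37 (SE 0.166; edgeR, adjusted p = 0.407), beside 0.38 on C57BL/6. Differences for the remaining genes ranged from -0.12 for Notum to 0.298 for Wnt16, with Axin2 at -0.09, Lrp6 at 0.01 and Nkd2 at 0.11 between them. The authors' deposited table gives the same picture by DESeq2: it calls 6 of the 10 genes on C57BL/6, the 7 here without Notum, and 0 on BALB/c, at a q-value under 0.05.

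**Figure D3:**
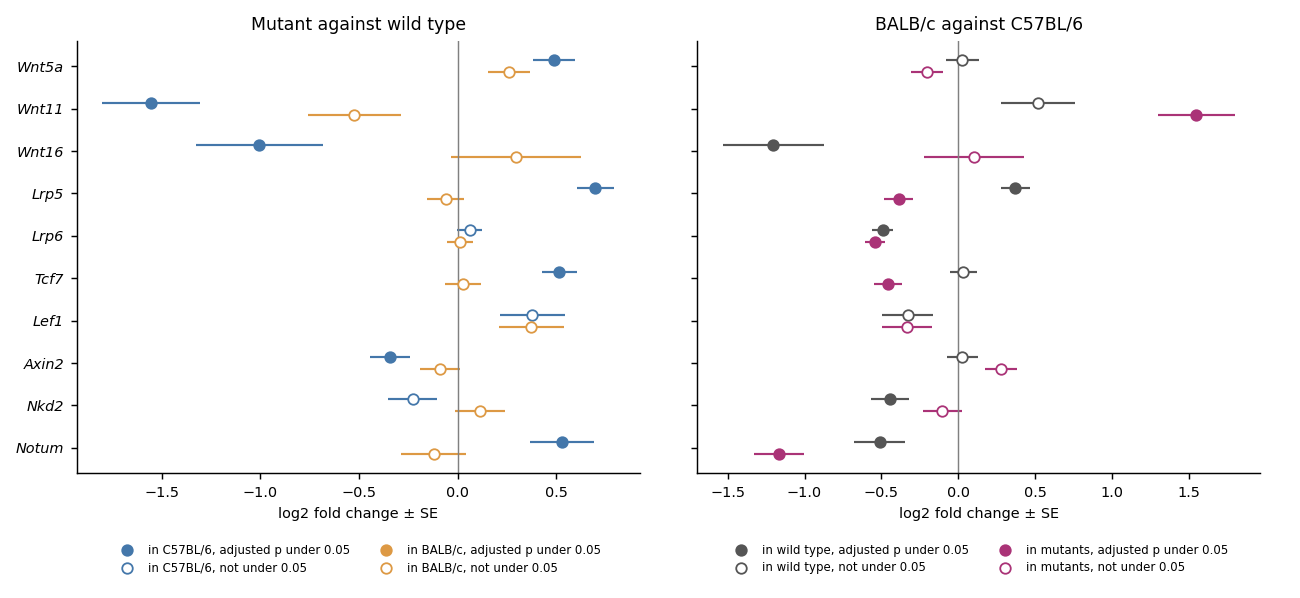
Fitted log2 fold changes of the 10 genes with their standard errors, for mutants against wild types in each strain (left) and BALB/c against C57BL/6 in each genotype (right). Filled points have an adjusted p under 0.05: there are 7 on C57BL/6 and 0 on BALB/c in the left panel, and 5 for each genotype in the right panel.

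Whether the mutant effect differed between strains was tested by the interaction of genotype and strain, the effect on BALB/c minus that on C57BL/6. It was called for 2 of the 10 genes, when 10% of all genes were called, 5.46% higher and 4.58% lower. Both were lower. For Lrp5 the interaction was -0.76 (SE 0.134; edgeR, adjusted p = 0.00775), from an effect of 0.70 on C57BL/6 and -0.06 on BALB/c. For Tcf7 it was -0.49 (SE 0.127; edgeR, adjusted p = 0.0357), from effects of 0.52 and 0.03. The Lrp5 interaction kept its call without any 1 of the 12 libraries, while that of Tcf7 was kept in 3 of 12 such fits (without wild type replicate 1 or 3 or mutant replicate 4 on C57BL/6), with adjusted p up to 0.0880 in the others.

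Wnt11, Wnt16 and Notum had interactions of 1.03 (edgeR, adjusted p = 0.0731), 1.305 (0.0876) and -0.65 (0.0871), with SEs of 0.341, 0.461 and 0.230, and did not pass. With DESeq2, which called 16.6% of all genes, 4 of the 10 genes were called, as Wnt11 (adjusted p = 0.0365) and Notum (adjusted p = 0.0467) joined the first 2. The Wnt11 interaction passed in 2 of the 12 fits that left out a library, such as that without C57BL/6 mutant replicate 4 (1.12; edgeR, adjusted p = 0.0490). Of 7 other settings, 5 left it uncalled. For these 3 genes and for Wnt5a (adjusted p = 0.332) and Axin2 (0.264), a call on C57BL/6 and none on BALB/c is not by itself a difference between strains. Nkd2, Lef1 and Lrp6, which were called in neither strain, had interactions with adjusted p from 0.220 to 0.997. With the Y-linked covariate Notum was called (-0.79; edgeR, adjusted p = 0.0217) and Tcf7 was not (adjusted p = 0.0635). Marker genes of other cells also had interactions. They lay above 0 (a higher effect on BALB/c) for 5 of 5 tested erythroid, 5 of 7 B cell precursor and 4 of 6 skeletal muscle genes, and below 0, the sign of Lrp5 and Tcf7, for 4 of 5 osteoclast and 2 of 6 osteoblast genes. Their part in the Lrp5 and Tcf7 values was not tested.

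Between wild types of the 2 strains, which also differ by flow cell, 5 of the 10 genes differed, when 48.5% of all genes did, so the share is near the background (22.8% of all genes were higher and 25.6% lower). The ranges did not overlap for 7 of the 10 genes, against 57.5% of all genes. Lrp5 was higher on BALB/c by 0.37 log2 (SE 0.0948; edgeR, adjusted p = 0.00717). Lrp6 was lower, at 76.7, 83.0 and 75.8 CPM against the C57BL/6 values above with no overlap, and fell by 0.49 log2 (SE 0.0655; edgeR, adjusted p = 0.000135). The co-receptors thus differed between strains in opposite directions.

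Wnt16 was lower on BALB/c, with 0.676, 1.297 and 1.288 CPM in wild types, by a log2 difference of -1.20 (SE 0.328; edgeR, adjusted p = 0.0101). Nkd2, at 13.30, 12.41 and 9.96 CPM, was lower by -0.44 (SE 0.126; edgeR, adjusted p = 0.0121), and that call was lost without BALB/c replicate 15 (adjusted p = 0.0560). Notum had 6.84, 6.36 and 10.4 CPM, of which replicate 15 came close to the C57BL/6 wild types. Its log2 difference was -0.51 (SE 0.163; edgeR, adjusted p = 0.0217), lost without C57BL/6 replicate 3 or BALB/c replicate 13 or 14 (adjusted p up to 0.0814). The wild types of the 2 strains overlapped in Axin2, at 18.26, 19.27 and 20.67 CPM on BALB/c, in Tcf7 and in Wnt5a, with log2 differences of 0.03 for each (SE 0.0905 to 0.107). With the Y-linked covariate, whose genes were high in all 3 C57BL/6 wild types and in 1 of the 3 on BALB/c, the Wnt16 (adjusted p = 0.0678) and Notum (0.103) calls were lost and Wnt11 was called (0.82; edgeR, adjusted p = 0.0118). All 8 airway and olfactory markers were lower and 6 of 7 B cell precursor markers were higher in BALB/c wild types (B cell sums of 40.0 to 42.5 against 12.97 to 24.47 CPM). Of the other lists, 4 of 4 basal epithelium, 4 of 4 olfactory neuron and 3 of 6 chondrocyte genes were lower, with chondrocyte sums of 584 to 1698 against 4703 to 6962 CPM. Of 6 osteoblast genes 2 were higher and 1 lower, as were 2 and 1 of 5 suture and periosteal mesenchyme genes. In addition, 2 of 5 tested erythroid genes were higher, and 1 of 5 tested in each of the T cell, endothelial and osteoclast lists. The part of these cells in the values was not tested.

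In mutants, 5 of the 10 genes differed between strains, when 36.9% of all genes did (18% higher and 18.9% lower), and the ranges did not overlap for 6 of the 10 genes, against 50.2% of all genes. This comparison shares the C57BL/6 mutants with the first comparison above, so the same 3 libraries enter both. Wnt11 was higher on BALB/c by 1.55 (SE 0.248; edgeR, adjusted p = 0.000539), at 4.15 ± 1.17 CPM against 1.41 ± 0.147 CPM (mean ± SD, n = 3 each). Notum had 7.61, 7.15 and 6.94 CPM on BALB/c, below each C57BL/6 mutant, and differed by -1.16 (SE 0.163; edgeR, adjusted p = 0.000215). Tcf7 differed by -0.46 (SE 0.0899; edgeR, adjusted p = 0.00207) and Lrp5 by -0.39 (SE 0.0947; edgeR, adjusted p = 0.00728), both lower on BALB/c.

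Lrp6 differed between strains in mutants as in wild types, at 72.3, 80.2 and 85.3 CPM on BALB/c and by -0.54 log2 (SE 0.0652; edgeR, adjusted p = 7.82e-05). Axin2 was just above the threshold, with 17.3, 19.8 and 17.6 CPM on BALB/c and a log2 difference of 0.28 (SE 0.102; edgeR, adjusted p = 0.0502). Its BALB/c values overlapped those of C57BL/6 mutants through replicate 4 alone. Wnt16 in BALB/c mutants was at 1.68, 1.38 and 0.98 CPM and Nkd2 at 12.9, 12.9 and 12.8 CPM, within or overlapping the C57BL/6 mutant values. Of the markers, 6 of 6 skeletal muscle, 7 of 7 B cell precursor and 5 of 5 erythroid genes were higher in BALB/c mutants, and 4 of 5 osteoclast, 3 of 6 osteoblast and 5 of 8 airway and olfactory genes were lower. A further osteoblast gene, Bglap, which encodes osteocalcin, was higher. The muscle sums were 398, 24.8 and 3.35 CPM in BALB/c mutants, high in replicate 16 above all, and the lowest lay within the 1.41 to 4.80 CPM of C57BL/6 mutants. The part of these cells in the values was not tested.

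Levels of different genes were compared after division by the gene length in the deposited table, as CPM per kilobase. Lrp5 had the highest level in every group, at 44.3 ± 4.78 in C57BL/6 wild types, 72.0 ± 8.55 in C57BL/6 mutants, 57.3 ± 1.13 in BALB/c wild types and 54.96 ± 2.82 in BALB/c mutants (mean ± SD, n = 3 each). Tcf7 came next at 26.2 to 37.5 (group means), then Lrp6 at 8.38 to 12.3 and Wnt5a at 5.98 to 8.40. Below these stood the feedback genes and Lef1, and Wnt11 and Wnt16 were lowest in all 4 groups by their means. In BALB/c wild types Lef1 (1.99 to 2.76) and Wnt11 (1.59 to 2.81) overlapped. What the deposited length measures is not stated beyond its heading, and the order of the lower genes rests on it. With the union of GENCODE exonic bases as the length, an alternative added after seeing the data, Lrp5, Tcf7 and Lrp6 were again the top 3 in each group, with Lrp5 and Tcf7 overlapping in C57BL/6 wild types (23.5 ± 2.54 and 22.4 ± 3.53). Wnt16 was then lowest in all 4 groups by its mean, where by the deposited length Wnt11 was lowest in both C57BL/6 groups. Lef1 (0.841 ± 0.0466) then lay below Wnt11 (1.00 ± 0.0762) in C57BL/6 wild types and in both BALB/c groups by its mean, and Notum (4.66 ± 0.295) above Wnt5a (3.34 ± 0.294) in C57BL/6 wild types. By the deposited length, neighbours whose samples overlapped in C57BL/6 wild types were Wnt5a (5.98) and Notum (5.56), Nkd2 (5.01) and Axin2 (4.48), and Wnt16 (1.51) and Wnt11 (1.49). Notum stood above Axin2 in both C57BL/6 groups and below it on BALB/c, where the wild type values of the 2 genes overlapped.

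Ratios of 2 members within a library do not depend on how libraries are scaled, and 3 pairs, picked after their values were seen, are given as a description. Lrp5 exceeded Lrp6 by 3.77 ± 0.488 times in C57BL/6 wild types, 5.84 ± 0.525 in C57BL/6 mutants, 6.85 ± 0.443 in BALB/c wild types and 6.52 ± 0.534 in BALB/c mutants (per kilobase, mean ± SD, n = 3 each). The C57BL/6 wild types, at 3.28, 4.26 and 3.76, were the group below all others. Wnt5a exceeded Wnt11 by 4.01 ± 0.0799, 16.8 ± 3.62, 3.02 ± 0.891 and 5.14 ± 1.24 times in the same order, and the C57BL/6 mutants (13.4, 20.6 and 16.5) stood above every other sample. The ratio of Notum to Axin2 was 1.24 ± 0.0285 in C57BL/6 wild types, 2.31 ± 0.513 in C57BL/6 mutants, 0.848 ± 0.187 in BALB/c wild types and 0.841 ± 0.0823 in BALB/c mutants. The size of these ratios depends on the deposited lengths, and their proportion between groups does not: with exonic bases as the length they are multiplied by 0.775, 0.829 and 1.08 in every library.

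**Figure D4:**
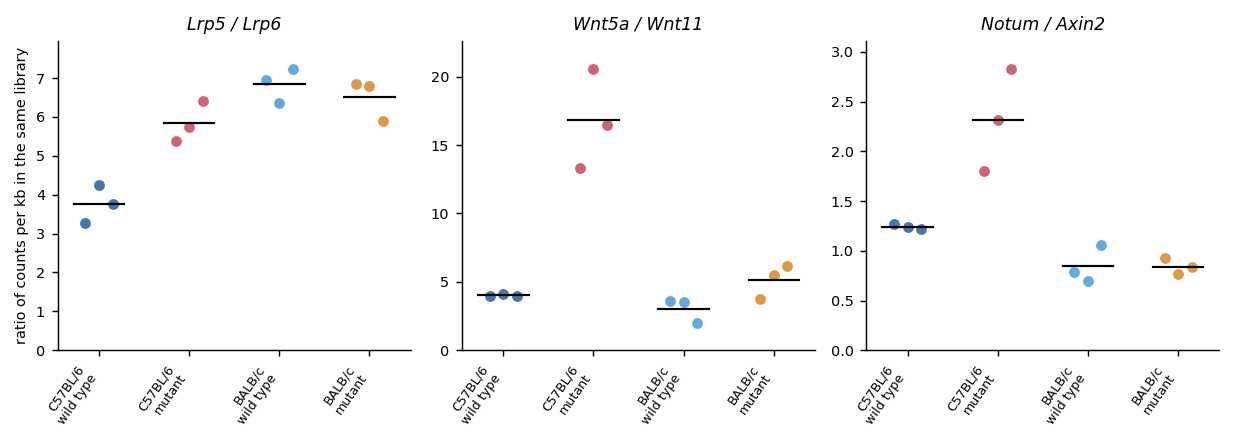
Ratios of counts per kilobase between 2 genes in the same library, with 1 point per sample and a bar at the group mean, on linear axes from 0. The C57BL/6 mutants are highest for Wnt5a to Wnt11 (13.4 to 20.6) and for Notum to Axin2 (1.80 to 2.83), and the C57BL/6 wild types are lowest for Lrp5 to Lrp6 (3.28 to 4.26).

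Among 63 other genes of the pathway, 55 passed the filter and 27 differed between C57BL/6 mutants and wild types, 14 higher and 13 lower. Of all genes 23.9% did (11.3% higher and 12.6% lower). The median log2 fold change of the 55 was -0.0003, beside -0.004 for all genes. Library totals as the scale lowered the median of all genes by 0.196. The share of all called genes that were higher then went from 47.5% to 13.2%. The count of pathway genes was 15 when the C57BL/6 samples were fitted alone, 17 without mutant replicate 5 and 16 without mutant replicate 6. Of all genes, 9.21%, 13.8% and 10.5% were called in these fits. Of 10 other ligands tested, 1 rose and 2 fell: Wnt4 went from 11.8 ± 2.01 to 4.40 ± 2.14 CPM (log2 fold change -1.41, SE 0.277; edgeR, adjusted p = 0.00519). Wls, which carries Wnt proteins to the cell surface, rose by 0.39 (SE 0.0695; edgeR, adjusted p = 0.00309), and Porcn, which attaches their lipid, did not pass. This is the comparison in which marker genes of other cell types moved, and their part in the values of these 55 genes was not tested.

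Among 19 tested receptors, Lgr co-receptors and R-spondins, 5 rose and 9 fell. Fzd5, a Frizzled receptor, rose by 0.71 (SE 0.0841; edgeR, adjusted p = 0.000420), close to the 0.70 of Lrp5, and Lgr6, a receptor for R-spondins, rose by 0.59 (SE 0.133; edgeR, adjusted p = 0.00980). Lgr5 of the same list went the other way, from 1.22 ± 0.130 CPM per kilobase in wild types to 0.480 ± 0.117 in mutants. R-spondins, secreted proteins that strengthen Wnt signals, fell: Rspo2 by 1.62 (SE 0.360; edgeR, adjusted p = 0.00919) and Rspo1 by 1.44 (SE 0.371; edgeR, adjusted p = 0.0178). Fzd10 fell by 1.49 (SE 0.322; edgeR, adjusted p = 0.00822) from a low level of 1.78 ± 0.439 CPM.

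Of 15 transducers 3 rose and 0 fell, a share no greater than the 23.9% of all genes. Among the 3, Ctnnb1, which encodes beta-catenin, rose by 0.44 (SE 0.0628; edgeR, adjusted p = 0.000971). Of 9 other feedback and target genes 4 rose and 2 fell. Wif1, a secreted inhibitor that binds Wnt proteins, rose from 443 ± 35.1 to 855 ± 110 CPM (log2 fold change 0.95, SE 0.120; edgeR, adjusted p = 0.000555). Tnfrsf19, a receptor of the tumour necrosis factor family, rose by 0.47 (SE 0.131; edgeR, adjusted p = 0.0240). Of the genes that fell, Ccnd1, which encodes cyclin D1, went from 124 ± 4.92 to 68.5 ± 13.8 CPM (log2 fold change -0.86, SE 0.123; edgeR, adjusted p = 0.00103), and Nkd1, the paralogue of Nkd2, from 19.0 ± 1.098 to 12.7 ± 1.68 CPM (-0.58, SE 0.125; edgeR, adjusted p = 0.00792). Called feedback and target genes thus lay in both directions, as Axin2 and Notum did.

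On BALB/c, 0 of the 55 genes were called by edgeR, 12 had an unadjusted p under 0.05 (3 higher and 9 lower), and DESeq2 called 1, Wnt2b (0.62, adjusted p = 0.00525), and limma-voom 0. Of all genes, edgeR called 0.136%, DESeq2 2% and limma-voom 0.272%, and 11.7% had an unadjusted p under 0.05 by edgeR. The interaction was called for 16 of the 55 with DESeq2, which called 16.6% of all genes. With edgeR it was called for 9, 2 higher and 7 lower, when 10% of all genes were called (5.46% higher and 4.58% lower). The count ranged from 3 to 18 when 1 library was left out: it was 3 without C57BL/6 mutant replicate 6 or BALB/c mutant replicate 16 or 17, 4 without C57BL/6 mutant replicate 5 or BALB/c wild type replicate 13 or 15, 5 without C57BL/6 wild type replicate 1 or BALB/c mutant replicate 18, and 18 without C57BL/6 mutant replicate 4. Of all genes, 3.78% were called without C57BL/6 mutant replicate 6 and 19% without replicate 4, the lowest and highest shares of these fits. Wif1 had the lowest interaction (-1.19, SE 0.169; edgeR, adjusted p = 0.00273). Lgr6 (-0.66), Fzd5 (-0.65) and Ctnnb1 (-0.43) also had the sign seen for Lrp5 and Tcf7, with adjusted p of 0.0471, 0.00906 and 0.0145 by edgeR. Wnt4 (1.498) and Ror1, which encodes a receptor for WNT5A (1.04), had the other sign, with adjusted p of 0.0361 and 0.0403. With library totals as the scale, which raised the median interaction of all genes by 0.231, 8 of 10 called pathway genes were higher, beside 90.5% of all called genes.

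**Figure D5:**
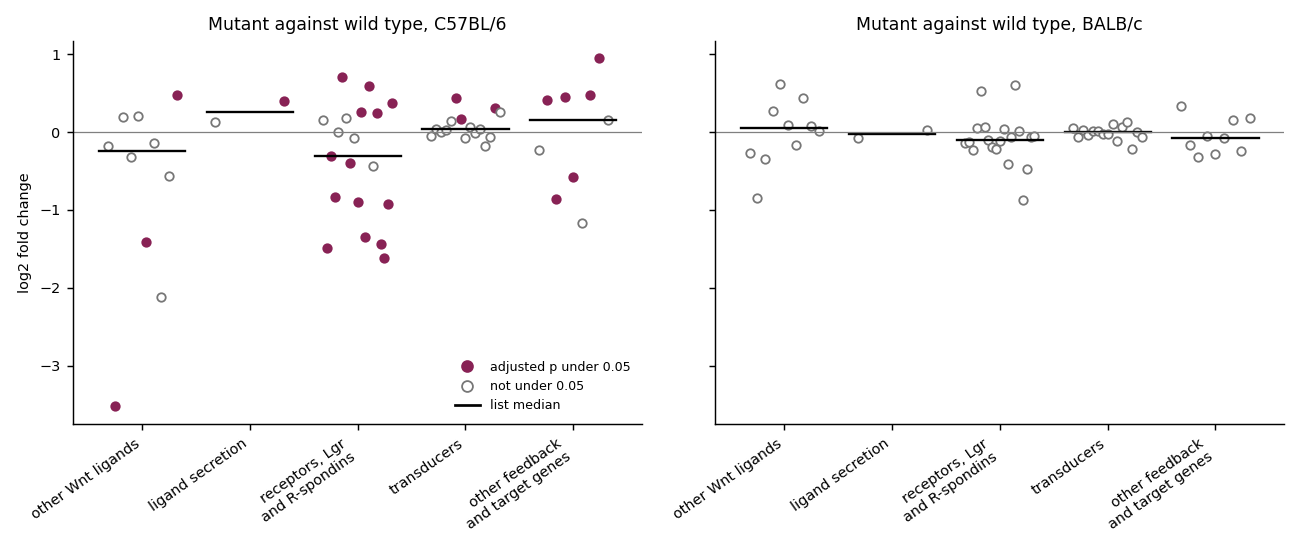
Fitted log2 fold changes of mutants against wild types for the 55 other pathway genes tested, by list, on C57BL/6 (left) and BALB/c (right), with a bar at each list's median. Filled points have an adjusted p under 0.05, 27 in the left panel and 0 in the right, and those of the receptor list lie on both sides of 0.

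For the members whose log2 level ranged over more than 1 across the 12 samples, the genes with the nearest pattern were sought among 12902 genes by the root mean square difference of centred log2 CPM. Lrp5 was followed most closely by Ctsa (0.0657), Mmp16 (0.0722) and Fzd5 (0.0749), against an SD of 0.267 for Lrp5 itself. Ctsa, a lysosomal protease, had 190 ± 14.9, 288 ± 21.8, 245 ± 6.05 and 242 ± 9.61 CPM in C57BL/6 wild types, C57BL/6 mutants, BALB/c wild types and BALB/c mutants. Wnt11 was nearest to Penk (0.266), Rgma (0.307) and Mirg (0.312), and Penk, the enkephalin precursor, had 31.8 ± 2.96, 13.2 ± 0.992, 61.1 ± 0.637 and 34.5 ± 5.33 CPM in that order. For Wnt16 the nearest were Epyc (0.227), a proteoglycan of cartilage, Ank2 (0.268) and Sox8 (0.302), for Notum they were Arsk (0.146), Thsd4 (0.160) and Dusp23 (0.174), and for Lef1 Adamts9 (0.112), Ssh2 (0.124) and Pde10a (0.127). The 12 samples differ by strain, flow cell and tissue makeup as well as genotype, so these are descriptions of likeness.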

How the data were processed

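Polyadenylated RNA from 12 samples in 4 groups of 3 was sequenced. Per the submitters' processing notes, bcl2fastq, TopHat2 2.0.6, HTSeq and DESeq2 and the mm10 build were used. The strand setting, annotation and roles of these tools are not given in the sources used here. The deposited table gives whole-number counts per gene and, per the file headers, RPKM and a gene length headed as coding length. Every deposited count is even. The authors' second table gives log2 fold changes with p-values and q-values, which were compared with those computed here. RPKM values were deposited by the authors and were not tested.

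Counts were tested with edgeR 4.0.16 in R 4.3.3 by the quasi-likelihood test: filterByExpr (minimum count 10), TMM scaling, 1 mean per group over all 12 samples, and Benjamini-Hochberg adjustment over 16190 of 23358 genes, called under 0.05. Strain differences are BALB/c minus C57BL/6. Levels are CPM on TMM-scaled library sizes. Alternatives were DESeq2 1.42.0, limma-voom (limma 3.58.1), RLE factors, library totals, no filter, a Y-linked gene covariate, 2 groups only, each replicate left out, and halved counts and GENCODE exonic lengths, the last 2 added after seeing the data. Code was tested on simulated data. From the pathway lists, up to 4 called genes per direction and contrast with a mean of at least 1 CPM and the largest fold changes were eligible to be named. Wls, Porcn, Ctnnb1 and Lgr5 on C57BL/6, Wnt2b, Fzd4, Gsk3a, Gsk3b, Wnt10b, Ccnd1 and Nkd1 were named after their values were seen. Pattern likeness was computed for members whose log2 range exceeded 1, leaving out unnamed genes. Members and lists were chosen with earlier results of these data known. The gene totals of 27181658 to 46521546 limit precision mainly for Wnt11 and Wnt16, with 18 to 268 counts per library.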

Additional observations from a re-analysis of the deposited data

Results flagged for a closer look

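The mutant effect on Lrp5 differed between the strains by the interaction test: it was 0.70 log2 on C57BL/6 and -0.06 on BALB/c, a difference of -0.76 (SE 0.134; edgeR, adjusted p = 0.00775). Mutants were above wild types in 3 of 3 C57BL/6 samples, and the BALB/c ranges overlapped. Over the 7 other settings the interaction ranged from -0.79 to -0.53 with adjusted p up to 0.0123, and over the 12 fits that left out a library from -0.83 to -0.66 with adjusted p up to 0.0253.

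The mutant effect on Tcf7 also differed between the strains by that test, with 0.52 on C57BL/6 and 0.03 on BALB/c, a difference of -0.49 (SE 0.127; edgeR, adjusted p = 0.0357). The call was lost with library totals as the scale (-0.27, adjusted p = 0.0913), with a Y-linked covariate (adjusted p = 0.0635) and in 9 of the 12 fits that left out a library (adjusted p up to 0.0880).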

How the results depend on the processing

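Of 50 results for the 10 genes (5 comparisons each), 19 were called, 12 of these were called under each alternative run, and 0 of the called ones changed direction. The 12 are Lrp5 in all its 4 calls, Lrp6 in both strain comparisons, Wnt5a, Wnt11 and Tcf7 by genotype on C57BL/6, and Wnt11, Notum and Tcf7 by strain in mutants. The 7 lost somewhere were Wnt16, Axin2 and Notum by genotype on C57BL/6, the Tcf7 interaction, and Wnt16, Nkd2 and Notum by strain in wild types. Wnt16 and Axin2 on C57BL/6 were lost with no filter (adjusted p = 0.0503 and 0.0519), the Y-linked covariate (0.115 and 0.0556) and 2 groups only (0.0683 and 0.116), Notum on C57BL/6 with library totals (0.149), and the wild type strain calls of Wnt16 (0.0678) and Notum (0.103) with the covariate, Notum also with 2 groups only (0.0503).

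By tool or samples, DESeq2 gave 1 pathway gene on BALB/c, 4 of the 10 genes and 16 pathway genes for the interaction, and the fit of the 2 C57BL/6 groups gave 15 pathway genes. Of all genes, DESeq2 called 2% on BALB/c and 16.6% for the interaction, and the fit of the 2 C57BL/6 groups called 9.21%. Library totals reversed uncalled values: Lrp6 on C57BL/6 (-0.14), the interactions of Lrp6 (0.18) and Lef1 (0.23), the wild type strain differences of Wnt5a (-0.081), Axin2 (-0.0858) and Tcf7 (-0.0709), and Nkd2 by strain in mutants (0.0080). That scaling shifted the all-gene median by -0.196 on C57BL/6, 0.231 for the interaction, -0.115 and 0.117 by strain in wild types and mutants, and 0.035 on BALB/c, and the share of called genes that were higher from 47.5% to 13.2%, 54.4% to 90.5%, 47.1% to 31.2% and 48.8% to 67.8% for the first 4. The Y-linked covariate reversed the Lef1 interaction (0.0018) and the wild type strain values of Wnt5a (-0.0363) and Tcf7 (-0.00889), and halved counts the Lef1 interaction (0.0075).

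Leaving out 1 replicate, the called genes ranged from 4 to 7 of 10 and from 16 to 31 pathway genes on C57BL/6, from 1 to 3 and from 3 to 18 for the interaction, and from 0 to 1 pathway genes on BALB/c (Fzd4, without BALB/c wild type replicate 14). Of all genes, these fits called 10.5% to 29.3% on C57BL/6, 3.78% to 19% for the interaction and 0% to 0.574% on BALB/c. The interaction count of 9 pathway genes stayed within 1.5 times only without C57BL/6 wild type replicate 2 or 3 or BALB/c wild type replicate 14. Uncalled log2 values that changed sign ranged from -0.084 to 0.087 (Wnt5a), -0.059 to 0.164 (Tcf7) and -0.019 to 0.088 (Axin2) by strain in wild types, from -0.201 to 0.041 (Nkd2) and -0.075 to 0.330 (Wnt16) by strain in mutants, from -0.206 to 0.120 (Lef1) and -0.106 to 0.023 (Lrp6) for the interaction, and from -0.042 to 0.082 (Lrp6), -0.246 to 0.133 (Notum) and -0.013 to 0.079 (Tcf7) on BALB/c. No paired analysis was possible because the groups share no replicate numbers. With 3 samples per group and low counts, changes of Wnt11 and Wnt16 were measured least precisely. The cause of each lost call was not tested.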

Other observations

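Of the 15 transducers of the pathway, 9 differed between wild types of the 2 strains and 13 between mutants, when 48.5% and 36.9% of all genes did, and strain cannot be told apart from flow cell. In mutants 3 were higher and 10 lower on BALB/c. Apc, a scaffold of beta-catenin destruction, was lower on BALB/c by -0.58 (SE 0.0765; edgeR, adjusted p = 0.000142) and Gsk3b, its kinase, by -0.56 (SE 0.0654; edgeR, adjusted p = 6.43e-05). Gsk3a, the related kinase, was higher by 0.26 (SE 0.0453; edgeR, adjusted p = 0.000891). In the same comparison Lgr5 (1.13), Rspo2 (1.55), Rspo3 (1.07) and Fzd10 (1.45) were higher and Wif1 (-1.14), Lgr4 (-0.69) and Znrf3 (-0.56) were lower, each with an adjusted p under 0.05 by edgeR. Between wild types, Wnt9a (1.13), Wnt1 (0.84), Bambi (0.81) and Fzd1 (0.72) were higher on BALB/c and Wnt4 (-1.66), Rnf43 (-1.61), Ror1 (-1.45) and Fzd3 (-0.94) were lower. Marker genes of other cells also differed between these wild types, with 8 of 8 airway and olfactory genes lower and 6 of 7 B cell precursor genes higher. Their part in these values was not tested.

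As shares of the summed level of 19 Wnt ligands per kilobase, Wnt10b was the most abundant, with means of 26.3% in C57BL/6 wild types, 30.6% in C57BL/6 mutants, 36.4% in BALB/c wild types and 30.7% in BALB/c mutants. Wnt5a held 13.97%, 19.7%, 12.1% and 15.5% in the same order, and its C57BL/6 mutants (18.4% to 22.4%) were above all 9 other samples. Wnt11 held 3.49%, 1.19%, 4.22% and 3.12%, and Wnt16 3.60%, 1.77%, 1.29% and 1.70%. The ratio of Tcf7 to Lef1 per kilobase was 8.76 ± 1.64, 9.63 ± 0.701, 11.4 ± 1.97 and 9.10 ± 2.05 (mean ± SD, n = 3 each), and these overlapped. With GENCODE exonic bases as the length, the ratio was 26.7, 29.4, 34.8 and 27.7, so its size depends on the deposited length, and the shares of ligands depend on it too. The authors' deposited table has the sign found here for all 10 genes in both genotype comparisons and between wild types, and for 9 of 10 between mutants, where Wnt16 differs.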
